A study of Mus musculus with 4 samples.

Results

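Reln, Tenm2 and Sez6, which encode 3 large extracellular or membrane proteins best known from the nervous system, were examined in mouse mammary tumours with and without a knockout of the microRNA miR-9. The 3 genes were taken by name from a deposited table of 1142 genes. They were chosen by their large differences between knockout and control in these same samples, so those differences are given as a description, with no test. The study profiled mRNA of tumours from female MMTV-PyMT mice. Samples without the knockout are called controls 1 and 2, and those with it knockouts 1 and 2, which makes 4 samples. All carried the MMTV-PyMT transgene, in which a mammary tumour virus promoter drives the polyoma virus middle T antigen in mammary epithelium, on a mixed C57BL/6 background, and the controls were littermates. The labels place the deletion in exon 1 of miR-9 and name heterozygous (miR-9+/-) mice as the source of the allele. They do not say whether the knockout tumours lacked 1 or both copies, which miR-9 locus was hit, how old the mice were, or how many animals or tumours gave the samples, so the spread between samples may be technical in part.

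Values are normalised read counts, that is reads divided by the authors' size factor for the sample. The relative depth of the libraries ran from 0.885 to 1.11. Every listed gene differed about 2-fold or more between the group means (smallest ratio 2.0), so the table is a selection made on these samples. The p-values below come after that selection on the same difference. They and the calls built on them are a description, and are no evidence of a difference. A gene that is not listed has an unknown level here, and does not count as absent. The table lists neither the miR-9 loci nor the host transcript looked up (0 of 4), so the deletion itself was not analysed here. In bulk tumour RNA, fewer cells of a type and less RNA per cell cannot be told apart.

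Reelin, the product of Reln, is a secreted matrix glycoprotein that guides neuronal positioning. It binds the lipoprotein receptors Vldlr and Lrp8, which signal through the adaptor Dab1. Outside the brain it is made by lymphatic endothelium and, in the mouse mammary gland, by myoepithelial cells. Tenm2 encodes a teneurin, a membrane protein that reaches across synapses to bind latrophilins. Sez6 encodes a membrane protein with CUB and sushi domains that the protease BACE1 sheds from neurons, and its human form is a surface antigen of neuroendocrine lung cancer. miR-9 is itself abundant in brain, where it acts in neural progenitors.

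The mature miR-9 strands are shown because they are what the deletion was made to remove. RefSeq gives the same 23-base 5p strand and the same 22-base 3p strand at 3 mouse loci, on chromosomes 3, 7 and 13 (GRCm38.p6). They are printed 5′ to 3′ with the seed, bases 2 to 8, in capitals:
mmu-miR-9-5p: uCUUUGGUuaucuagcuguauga
mmu-miR-9-3p: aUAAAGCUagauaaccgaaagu

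The 7-base complements of these seeds, ACCAAAG for the 5p strand and AGCTTTA for the 3p strand, were looked for in the longest annotated 3′ UTR of each gene (GENCODE M21, GRCm38; sense strand only). Reln (1019 bases) and Tenm2 (1379 bases) held no match to either strand. Sez6 (1003 bases) held a single match to the 5p seed, at chr11:77978681-77978687 on the plus strand, and none to the 3p seed. It is shown with its flanks (chr11:77978666-77978695), the match in capitals:
Sez6: atactcacgctccacACCAAAGcaggacac
Among 2685 3′ UTRs within 20% of the length of that of Sez6, 8.75% held a 5p match. The same share was 8.80% at the length of Reln and 12.2% at that of Tenm2. Sez6, which held the match, was the gene whose level was lower in the knockouts. These are letters in a window, and pairing with miR-9 was not measured.

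Reln and Tenm2 were both higher in the knockouts, and their RefSeq promoter windows are set side by side (both on the minus strand, GRCm38.p6). Each has 300 bases that run from before the RefSeq start to just past it. No such window was at hand for Sez6. Capitals mark the GC box GGGCGG, searched on both strands:
Reln, chr5:22344656-22344955: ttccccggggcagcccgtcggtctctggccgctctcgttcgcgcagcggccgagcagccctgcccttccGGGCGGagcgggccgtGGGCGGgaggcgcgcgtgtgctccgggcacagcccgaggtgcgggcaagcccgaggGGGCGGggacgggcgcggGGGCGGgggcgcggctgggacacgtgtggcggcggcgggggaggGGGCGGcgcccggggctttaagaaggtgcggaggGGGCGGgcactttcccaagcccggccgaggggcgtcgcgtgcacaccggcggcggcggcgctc
Tenm2, chr11:36944192-36944491: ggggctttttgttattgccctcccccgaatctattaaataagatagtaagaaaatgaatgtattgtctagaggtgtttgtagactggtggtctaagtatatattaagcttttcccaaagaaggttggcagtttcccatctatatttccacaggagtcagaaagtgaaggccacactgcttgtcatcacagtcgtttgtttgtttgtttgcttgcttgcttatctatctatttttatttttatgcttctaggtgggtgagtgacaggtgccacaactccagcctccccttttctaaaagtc
The Reln window held 6 GC boxes and 47 CpG dinucleotides, more CpG than 98.6% of 32851 such windows, and 80.7% of its bases were G or C. The Tenm2 window held no GC box and 2 CpG dinucleotides, against a median of 7, with a GC content of 40.0%. GC boxes were found in 35.7% of all windows. The TATA box letters TATAAA, which 13.6% of windows held on either strand and which do not overlap the GC box letters, were in neither. The Tenm2 window lies 291 kb inside the gene as the files bound it, and which start the tumours used was not measured.

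Reln (ENSMUSG00000042453, chr5:21884454-22344702, minus strand) was scarce in the controls and abundant in the knockouts. It had 9.02 normalised reads in control 1, 42.9 in control 2, 679 in knockout 1 and 741 in knockout 2. The groups did not overlap, as for 99.9% of listed genes, and the lower knockout lay far above the higher control. The means were 26.0 ± 24.0 and 709.8 ± 44.2 (SD, n = 2 per group), a ratio of 27.3. The log2 difference, on the log2(value + 1) scale used throughout, was 5.08, the 5th largest increase of the table. The controls were 4.76-fold apart, and 50 listed genes had controls further apart on the log2 scale, while the knockouts differed 1.09-fold. The size of the increase therefore depends on which control is used: the log2 difference was 4.01 without control 1 and 6.15 without control 2.

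Tenm2 (ENSMUSG00000049336, chr11:36006656-37235964, minus strand) went from the edge of detection to a low level. Control 1 had 1.00 normalised read, which is 1 read, and control 2 had none, which allows up to 3.39 normalised reads at 3 reads. Knockout 1 had 46.1 (51 reads) and knockout 2 had 39.3 (41 reads). The knockout samples lay close together and well apart from the controls. Over both samples of a group, 1 read stood against 92, a ratio of 80.6 after scaling for depth, with an exact 95% interval of 14.1 to 3217 that covers counting error only. Of the 1142 listed genes, 15 had at most 1 control read in all. Because the control level is about 1 read, the log2 difference of 4.94 was set largely by the pseudocount, and became 7.01 with 0.1 added in place of 1 and 3.12 with 5 added.

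Sez6 (ENSMUSG00000000632, chr11:77930800-77979048, plus strand) moved the other way. It had 993 normalised reads in control 1 and 403 in control 2, against 14.5 in knockout 1 and 23.0 in knockout 2. Both knockouts lay far below both controls. The means were 698 ± 417 and 18.7 ± 6.05 (SD, n = 2 per group), so the level was 37.3-fold lower in the knockouts. The log2 difference was -5.04, the 6th largest decrease of the table, and was -4.39 without control 1 and -5.69 without control 2. The controls differed 2.46-fold and the knockouts 1.59-fold.

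**Figure D1:**
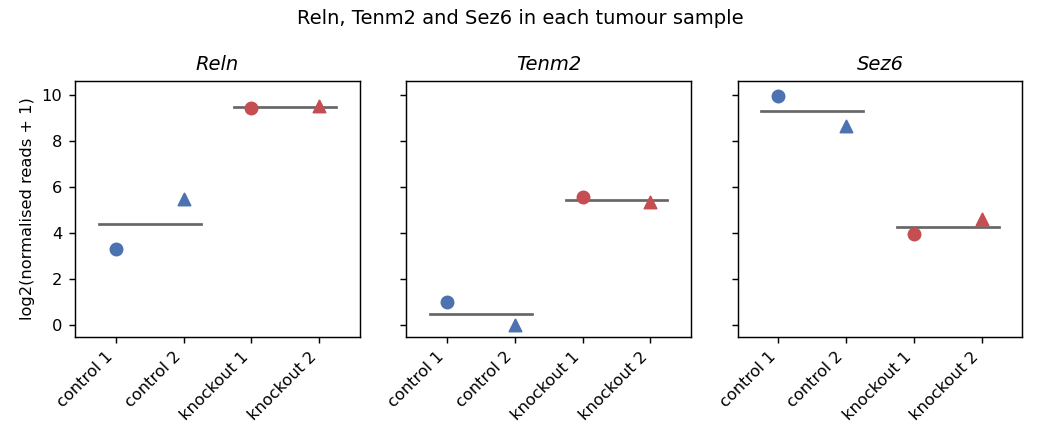
Level of Reln, Tenm2 and Sez6 in each sample, as log2(normalised reads + 1), with controls in blue, knockouts in red and a grey bar at each group's mean of the log2 values. Reln and Tenm2 are higher in both knockouts (Reln 679 and 741 normalised reads, Tenm2 46.1 and 39.3) and Sez6 is lower (14.5 and 23.0).

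Sez6 stood highest of the 3 genes in the controls, and Reln in the knockouts. Per kilobase of the gene length given in the files, the mean level in the controls was 121 normalised reads for Sez6, 1.09 for Reln and 0.0437 for Tenm2. In the knockouts it was 29.9 for Reln, 3.72 for Tenm2 and 3.24 for Sez6. Tenm2 and Sez6 could not be ordered in the knockouts, since the per-kilobase levels of the 2 samples were 4.02 and 3.43 for Tenm2 and 2.50 and 3.98 for Sez6. Among all listed genes, the per-kilobase mean of Sez6 went from the 80.2 percentile in the controls to the 9.37 percentile in the knockouts. Reln went from the 3.77 to the 42.2 percentile, and Tenm2 from the 1.14 to the 9.81 percentile. The length in the files is 23738 bases for Reln, whose longest coding transcript in GENCODE M21 has 11699. Per kilobase of the longest coding transcript, the knockout means were 60.7 for Reln, 4.42 for Sez6 and 4.31 for Tenm2.

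Reads of Reln and Tenm2 may include those of genes lying within them. In GENCODE M21, 7 annotated genes overlap Reln, 4 of them on the opposite strand, and 3 overlap Tenm2, all 3 on the opposite strand. None overlaps Sez6, and none of the overlapping genes was listed. The strand setting of the counting is not given in the sources used here, so reads of the opposite strand cannot be told apart.

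The word neuronal describes where the 3 genes are best known, and the table gave little with which to check it in these tumours. Of 25 neuron markers chosen, among them Rbfox3, Snap25 and Map2, 2 were listed, and of 14 neuroendocrine markers none was listed. Both listed neuron markers fell. Nefh, the heavy neurofilament chain, had control levels of 73.2 and 22.6 and knockout levels of 9.94 and 6.71 (5.75-fold lower; log2 difference -2.19 ± 0.71 SE; limma adjusted p = 0.017). Gad1, which makes the transmitter GABA, was at 88.2 and 71.2 against 28.9 and 12.5 (3.85-fold lower; limma adjusted p = 0.011). The call of Gad1 rested on each control in turn: the limma adjusted p was 0.077 without control 1 and 0.053 without control 2. Such calls carry little weight of their own, because 99.8% of the listed genes were called at a limma adjusted p under 0.05.

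Around reelin, neither the receptors Vldlr and Lrp8 nor the adaptor Dab1 was listed. Of 27 further genes chosen for the reelin pathway, 5 were listed, 4 of them higher and 1 lower. Their median log2 difference was 1.82, against 1.23 over all listed genes, of which 61.3% were called higher and 38.5% lower. Adamts3, a protease that cuts reelin in the mouse brain, had control levels of 26.1 and 85.9 and knockout levels of 215 and 221. That is a 3.9-fold rise (log2 difference 2.18 ± 0.56 SE; limma adjusted p = 0.00914), with the controls in the same order as for Reln. Its size depended on the scaling: with size factors recomputed from the table, the log2 difference was 1.28 by TMM (edgeR adjusted p = 0.0714) and 0.97 by RLE (DESeq2 adjusted p = 0.191), neither of which passed. Both kinds of factor assume that most genes do not differ, which a table selected for differences does not meet. Which scaling is right therefore cannot be told here. Adamts4, a related protease, was 2.82-fold lower, at 359 and 148 against 105 and 74.8 (limma adjusted p = 0.0226). Without control 1 it was not called (log2 difference -0.73; limma adjusted p = 0.124).

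Apoe, an apolipoprotein that shares receptors with reelin and also marks macrophages, rose 3.39-fold, with 6562 and 11799 in controls 1 and 2 against 28373 and 33805 (limma adjusted p = 0.00659). Cdh2, N-cadherin, which acts downstream of reelin in migrating neurons, rose 3.31-fold, with 30.1 and 97.2 in controls 1 and 2 against 248 and 174 (limma adjusted p = 0.0131). Without control 1 it was not called (log2 difference 1.09; limma adjusted p = 0.054). Nrp1, a neuropilin that serves as a semaphorin receptor, was 2.37-fold higher (limma adjusted p = 0.0128), but its log2 difference of 1.24 shrank to 0.51 with TMM (edgeR adjusted p = 0.15) and 0.16 with RLE factors (DESeq2 adjusted p = 0.859). Of the 5 reelin pathway genes, Apoe and Adamts4 were called with TMM factors, and Adamts4 alone with RLE factors.

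Near Tenm2 and Sez6 in function, little was listed. Of 14 further teneurins, latrophilins and their partners, none was in the table. Of 14 further genes of the Sez6 family, other CUB and sushi proteins, BACE enzymes and gamma-secretase subunits, 1 was listed. This was Csmd1, a CUB and sushi protein that restrains complement. Its control levels were 0 and 6.78 and its knockout levels 56.0 and 23.0 (log2 difference 3.73 ± 1.05 SE; limma adjusted p = 0.0116), a direction opposite to that of Sez6. Its call was lost without control 1 (log2 difference 2.25; limma adjusted p = 0.059), with TMM (edgeR adjusted p = 0.0818) and with RLE factors (DESeq2 adjusted p = 0.121).

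Of 44 genes of synaptic adhesion, 3 were in the table. All 3 were called higher, in a table where 61.3% of genes were, so the count is no result about synaptic adhesion. Their median log2 difference was 2.43. Slitrk6, a neurite growth protein, had control levels of 0 and 4.52 and knockout levels of 51.5 and 28.8 (limma adjusted p = 0.00735). Cntn2, a contactin, rose 5.13-fold, with 33.1 and 74.6 in controls 1 and 2 against 319.9 and 232 (limma adjusted p = 0.00434). Chl1, a relative of the adhesion molecule L1, was 2.8-fold higher (limma adjusted p = 0.00802). The call of Chl1 was lost with TMM (log2 difference 0.77; edgeR adjusted p = 0.0638) and RLE factors (0.43; DESeq2 adjusted p = 0.485), and that of Slitrk6 with RLE factors (3.24; DESeq2 adjusted p = 0.0555).

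Of 56 axon guidance genes 9 were listed, 6 called higher and 3 lower, a split near that of the whole table (61.3% higher and 38.5% lower). With TMM factors 2 were called higher and 3 lower (edgeR), and with RLE factors 0 higher, also at an unadjusted p under 0.05, and 3 lower (DESeq2). The receptor Ephb1 rose 5.92-fold, with 11.02 and 12.4 in controls 1 and 2 against 66.0 and 72.9 (limma adjusted p = 0.00543). Ntng2, a netrin-G that holds synaptic partners, rose 4.93-fold, and Slit3, a ligand of the Robo receptors, rose 3.34-fold. The semaphorins Sema5a and Sema3d rose 3.51-fold and 3.39-fold. The neuropilins parted: Nrp2 fell 3.36-fold while Nrp1, above, was higher with the deposited factors. Efna2, an ephrin, fell 2.63-fold, and Epha7, an ephrin receptor, fell 2.06-fold, with 1352 and 738 in controls 1 and 2 against 499 and 514 (limma adjusted p = 0.028). The limma adjusted p of the others lay between 0.00615 (Sema5a) and 0.0191 (Efna2).

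Together the 7 lists (reelin pathway, teneurins, Sez6 family, synaptic adhesion, axon guidance, neuron and neuroendocrine markers) held 19 further genes of 193 chosen, of which 13 were higher and 6 lower. Without knockout 1 or without knockout 2, none of the 19 was called by limma, and 3 and 5 of them had an unadjusted p under 0.05. The remaining knockout is then assumed to vary like the controls. The higher calls also leaned on the deposited size factors, though factors recomputed from a table selected for differences cannot show which scaling is right. With TMM factors computed from the table, 5 were called higher and 6 lower (edgeR), and with RLE factors 1 higher (Cntn2) and 6 lower (DESeq2). Over all listed genes the share of higher among those called was 61.4% with the deposited factors, 35.9% with TMM and 21.6% with RLE, and the median log2 difference was 1.23, 0.48 and 0.13. Reln and Tenm2 stayed above their controls and Sez6 below under each of these scalings, with log2 differences of 4.10, 5.36 and -6.02 under TMM and 3.79, 5.22 and -6.43 under RLE. They were chosen for large differences in these samples, so this is no added support.

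**Figure D2:**
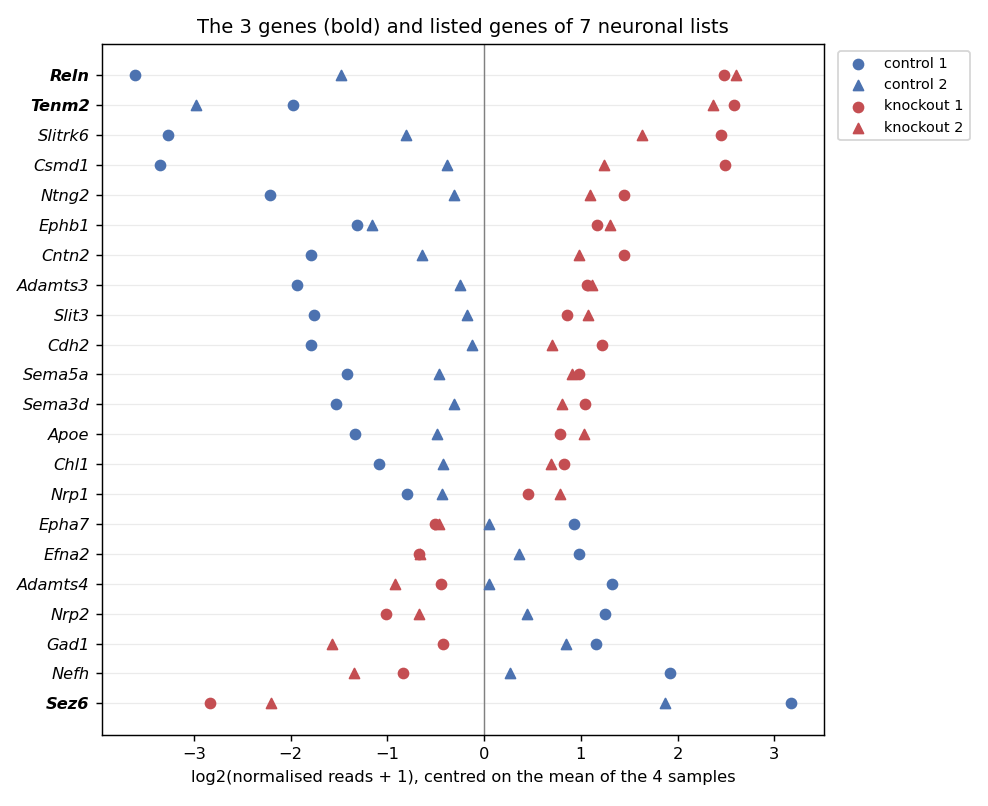
Centred log2(normalised reads + 1) in each sample for Reln, Tenm2 and Sez6 (bold) and the 19 listed genes of the 7 lists, sorted by the difference between knockouts (red) and controls (blue), with replicate 1 as circles and replicate 2 as triangles. In each of the 19 genes control 2 lies between control 1 and the knockouts, as it does for Reln and Sez6 but not for Tenm2.

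The controls were not alike, and control 2 lay on the knockout side of control 1 for most genes. In all 13 higher genes of the 7 lists control 2 was above control 1, and in all 6 lower genes it was below. Over the whole table this held for 865 of 1142 genes (75.7%). Reln and Sez6 followed that order, and Tenm2, with 1 and 0 control reads, did not. Over all genes the controls had a median absolute log2 difference of 0.62, and the knockouts of 0.25. Control 2 minus control 1 was 2.13 for Reln and -1.30 for Sez6 on that scale.

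**Figure D3:**
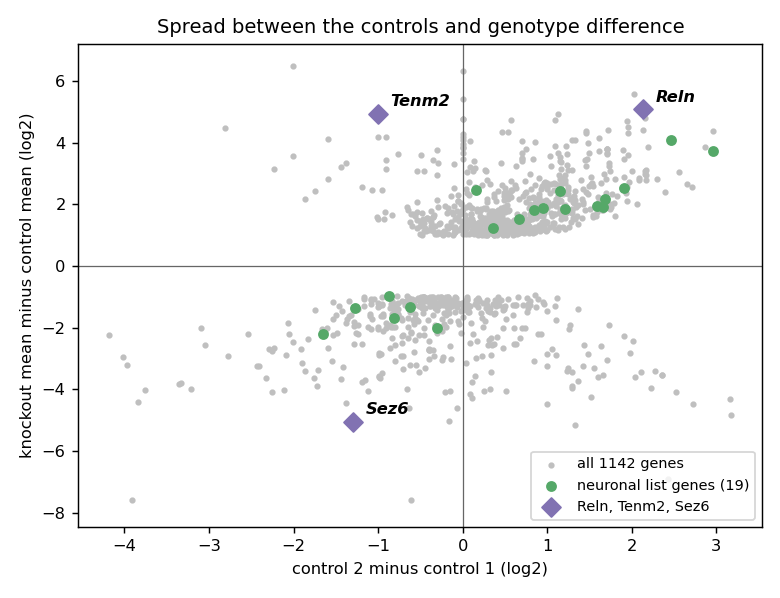
Log2 difference between the controls (x axis, control 2 minus control 1) against the log2 difference between the group means (y axis, knockout minus control) for all 1142 listed genes (grey), the 19 list genes (green) and the 3 genes (purple diamonds). Reln lies at 2.13 and 5.08, Tenm2 at -1.002 and 4.94 and Sez6 at -1.30 and -5.04, and the gap around 0 on the y axis reflects the selection of the table.

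Markers of cell types that could carry these transcripts differed between the same samples, as nearly all listed genes did. The counts that follow stand beside 61.3% of all listed genes called higher and 38.5% called lower, and nothing particular to a cell type is read from them. Of 12 basal and myoepithelial markers 8 were listed, 7 higher and 1 (Krt14) lower, and their sums were 7865 and 10344 for the controls against 33116 and 32233. Of the 7 higher markers only Myh11, the smooth muscle myosin heavy chain, had the same order of samples as Reln, at 263, 877, 4745 and 4915. Most of the others had knockout 1 above knockout 2. Of 8 lymphatic endothelium markers other than Reln, and of 11 blood endothelium markers, none was listed. Of 17 Schwann cell and glia markers 5 were listed, 4 higher and 1 (Mal) lower, with sums of 828 and 1687 for the controls against 1999.7 and 1694. Mal made up most of the control sums, at 643 and 1255 against 310 and 469 in the knockouts. With TMM factors 2 of the 5 were called higher (edgeR), and with RLE factors 1 (DESeq2), with 1 lower in each. All 7 listed of 13 luminal hormone-sensing markers were higher (sums 4719 and 8139 against 20764 and 25167). Of 12 secretory and progenitor markers 5 were listed, 4 lower and 1 (Aldh1a3) higher (sums 2946 and 12903 against 2894 and 1939). Aldh1a3, at 531 in each control, made up most of the knockout sums, with 2585 and 1438. The 4 lower genes, Csn1s1, Csn2, Csn1s2a and Glycam1, fell 9.70-fold, 25.3-fold, 48.5-fold and 339-fold, and Glycam1 had 2 and 5 reads in the knockouts. The part of these cell types in the levels of Reln, Tenm2 and Sez6 was not tested.

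Markers of tissue around the epithelium were called in 1 direction per list with the deposited factors. All listed markers of fibroblasts (3 of 12), macrophages (6 of 11), T and NK cells (3 of 11) and adipocytes (3 of 9) were higher, with medians of 1.44, 1.21, 1.87 and 3.29 on the log2 scale, against 61.3% of all listed genes. These calls depended on the scaling, and which scaling is right cannot be told from a table selected for differences. With TMM factors 1, 1, 1 and 2 of them were called higher (edgeR), in the same order of cell types, and with RLE factors 0, 0, 0 and 2 (DESeq2), with 1, 0, 0 and 2 at an unadjusted p under 0.05. Upper quartile factors left 2 of the 6 macrophage genes called (limma). The macrophage genes C1qa and C1qc were at -0.046 and -0.066 with RLE factors, and Adgre1 and Csf1r at 0.058 and 0.19. All 9 listed of 13 skeletal muscle markers were lower, as Sez6 was, also with TMM and RLE factors, with sums of 615 and 1094 for the controls against 75.9 and 45.1. In 8 of these 9 genes control 2 was above control 1, the reverse of the order for Sez6. The part of these tissues was not tested either.

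The genes whose 4-sample profile lay nearest that of each gene were ranked by the root mean square distance between log2 profiles, each centred on its own mean. Nearest to Reln were Cxcl15, a chemokine (distance 0.29), Cited1, a transcriptional co-activator of hormone-sensing luminal cells (0.32), the fibrinogen chain genes Fgb (0.32) and Fgg (0.37), and Apof, an apolipoprotein (0.36). The median distance over the table was 2.03. Cited1 had control levels of 25.1 and 99.4 and knockout levels of 997 and 1771, the same order of samples as for Reln. Cited1 and Fgb stayed among the nearest 5 with a pseudocount of 0.1 or 5. Cxcl15 and Apof stayed with neither, and their control levels were low, at 1.00 and 7.91 for Cxcl15 and 0 and 3.39 for Apof.

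Nearest to Tenm2 were Tescl (0.36), Sbp (0.39), Otor (0.48), Lmntd1 (0.53) and Ido1, a tryptophan-degrading enzyme (0.57). The first 4 had 0 to 2 reads in each control, so likeness among them largely records near absence in the controls. With a pseudocount of 0.1 only Otor stayed among the nearest 5, and with 5 only Tescl.

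Nearest to Sez6 were Xkr6 (0.34), Lingo3, a leucine-rich repeat membrane protein gene (0.52), Mlc1, an astrocyte membrane protein gene (0.54), Fstl4 (0.64) and the immunoglobulin segment Ighv1-15 (0.66), against a median of 3.20. Xkr6 had control levels of 269.6 and 174 and knockout levels of 5.42 and 11.5. Xkr6, Lingo3 and Mlc1 stayed among the nearest 5 with either other pseudocount. These distances rest on 4 samples and say nothing of a shared function.

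**Figure D4:**
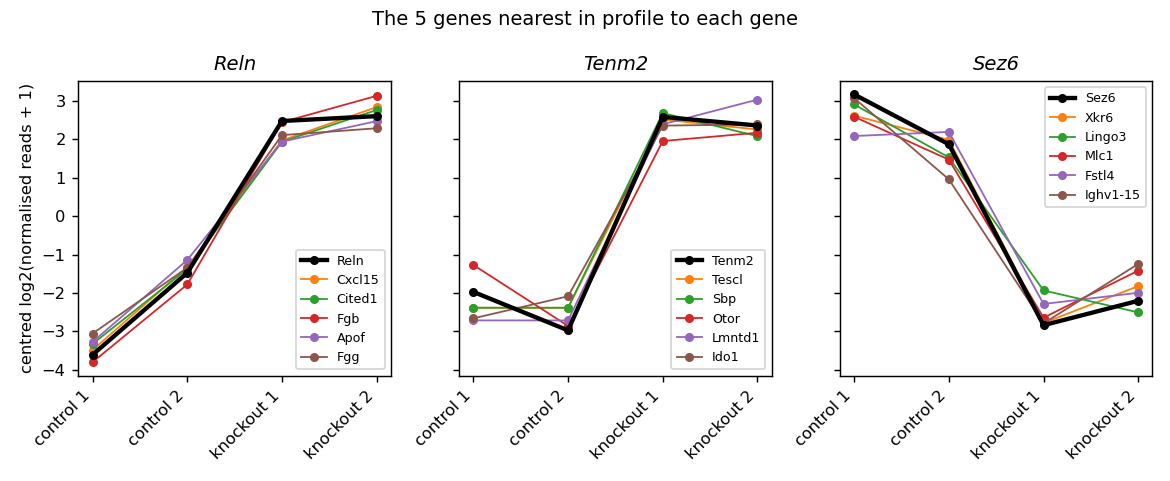
Centred log2(normalised reads + 1) of Reln, Tenm2 and Sez6 (black) and of the 5 genes nearest to each (coloured), where a line joins the 4 samples of a gene and carries no order in time. The distance of the nearest gene is 0.29 for Reln (Cxcl15), 0.36 for Tenm2 (Tescl) and 0.34 for Sez6 (Xkr6).

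On the chromosome, the closest listed genes on both sides of Sez6 were lower too, in a table where 38.5% of genes were called lower. Pipox, the peroxisomal sarcosine oxidase, ends 36.7 kb before Sez6 and had control levels of 1089 and 362 and knockout levels of 83.1 and 117, 7.25-fold lower (log2 difference -2.66 ± 0.52 SE; limma adjusted p = 0.00434). Its samples had the same order as those of Sez6, with control 1 highest and knockout 1 lowest. Dhrs13, a dehydrogenase, starts 53.2 kb after Sez6 and fell 2.39-fold, with 266 and 218 in controls 1 and 2 against 111 and 91.1 (limma adjusted p = 0.0127). Its lowest sample was knockout 2, unlike that of Sez6. Of 12 other protein-coding genes within 200 kb of Sez6, these 2 were listed, and the level of the others is unknown here. Whether genes of this region change together was not tested.

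The neighbours of Reln and Tenm2 did not all follow them. Napepld, a phospholipase 183 kb from Reln, was the single listed gene of 6 within 200 kb and fell 2.9-fold, with 638 and 413 in controls 1 and 2 against 182.5 and 180.2 (limma adjusted p = 0.00756). On the other side the closest listed gene, 2700038G22Rik, was 1.51 Mb away and fell 2.37-fold (limma adjusted p = 0.0198). Slit3, 298 kb from Tenm2, rose 3.34-fold, with 41.1 and 125 in controls 1 and 2 against 258 and 299 (limma adjusted p = 0.0106), and Nipal4, 8.91 Mb away on the other side, fell 2.64-fold (limma adjusted p = 0.0183). Neither of the 2 protein-coding genes within 200 kb of Tenm2 was listed.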

How the data were processed

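The 4 tumour samples were put into groups by their labelled genotype. Libraries were made with a TruSeq RNA kit from total RNA and run on an Illumina NovaSeq, per the labels' protocols. Bowtie 0.12.2 and the builds hg38, GRCm38 and mm10 are named per the submitters' processing notes, with no role for each. Which counter and strand setting were used, and why a gene was listed, is not given in the sources used here. The deposited signal values are read counts over a sample's size factor, since 100% of them were multiples of the sample's smallest value (tolerance 1e-06 for each read). The deposited gene length is in bases. In control 1 that value, 1.00, is so close to 1 that its recovered reads are less sure. The coordinates of the 3 genes in the files equal those of GENCODE M21 (GRCm38). The sequences printed for miR-9 and the promoters are from RefSeq.

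Values were compared as log2(value + 1) with the moderated fit of limma 3.58.1 (R 4.3.3, trended variance) for all 1142 genes (minimum mean 0.5, which removed none), with Benjamini-Hochberg adjustment at 0.05. SE is that of the log2 difference. Counting intervals and the floor of 3 reads hold no spread between samples. The genes, the lists and the rule for naming genes were chosen with earlier results of these data known. That rule took the 3 genes, all listed genes of their 3 pathways, up to 4 per other list by size of change, the 5 nearest profiles and the chromosome neighbours. The axon guidance genes beyond 4, and Krt14, Mal and Aldh1a3, were named after their values were seen. Alternatives used edgeR 4.0.16 and DESeq2 1.42.0 on recovered reads, other pseudocounts, filters and thresholds, and each sample left out. The fits were tried on simulated data in which a minority of genes differed, as many higher as lower. That setting is unlike the table, so it does not test TMM or RLE factors here.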

Additional observations from a re-analysis of the deposited data

How the results depend on the processing

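The direction of Reln, Tenm2 and Sez6 was the same under every alternative run. The genes were chosen for large differences in these same samples, so this is no added support. Their log2 differences of 5.08, 4.94 and -5.04 moved by more than the replicate SD in these settings: Reln to 3.79 with RLE factors (DESeq2), Tenm2 to 7.01 and 3.12 with pseudocounts of 0.1 and 5 and to 6.04 in edgeR with the deposited scaling, and Sez6 to -6.02 with TMM and -6.43 with RLE factors. Leaving out 1 sample at a time gave 4.01 to 6.15 for Reln, 4.44 to 5.45 for Tenm2 and -5.69 to -4.39 for Sez6. With 2 samples per group, a shift of this kind cannot exceed that SD.

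Over the table, 700 genes were called higher and 440 lower. The higher calls were 248 with TMM, 122 with RLE factors and 387 at a threshold of 0.01, where 197 were lower. TMM and RLE assume that most genes do not differ, so their counts from this selected table do not show which scaling is right. Leaving out 1 sample gave 13 to 665 higher and 0 to 405 lower calls by limma, where 0 came without either knockout, with 182 and 155 lower genes at an unadjusted p under 0.05. Of the 19 genes of the neuronal lists, 13 were called higher, but 5 with TMM, 1 with RLE and 8 at 0.01, where 1 was called lower in place of 6. Leaving out 1 sample gave 0 to 13 higher and 0 to 5 lower. C1qa and C1qc, macrophage genes, changed sign with RLE factors, to -0.046 and -0.066 (DESeq2 adjusted p = 0.95 and 0.929).

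The other filters (none, and a minimum mean of 5) could change no call, since the lowest mean of a listed gene was 6.40. A term for the replicate number (replicate block) gave 700 higher and 442 lower calls, with 13 and 6 in the neuronal lists. Deviations of same-numbered samples correlated at 0.04 across genes. This is a single value, and whether the replicate numbers stand for anything shared is not known. With 2 samples per group the spread between samples rests on few values, and whether it lies between tumours is not known. The Tenm2 ratio rests on a single control read.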
